A study of Mus musculus with 48 samples.

Results

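The comparison described here sets astrocytes sorted from the hippocampus of mice labelled Gq-CNO against those of mice labelled Gq-Saline. It holds 6 of the 48 libraries of the series, chosen by the labels: 3 Gq-CNO and 3 Gq-Saline libraries of cells carrying green fluorescent protein (GFP). All 24421 gene entries of the hippocampal table are covered, of which 15637 had a read in at least 1 of the 6 libraries and 11519 were high enough to be tested.

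The mice of both groups carry the genotype Aldh1l1-GFP, in which the promoter of the astrocyte folate enzyme gene Aldh1l1 drives GFP. Gq stands for an engineered receptor acting through Gq proteins, which the drug CNO (clozapine-N-oxide) activates. Both groups are labelled Gq, and the Gq-Saline mice received saline in place of CNO. The cells that carry the receptor are not named in the labels, which also give no dose, no time after injection, no age or sex, and do not tell whether each library came from 1 animal. The libraries were made from 10 ng of total RNA. The series is about the cation transporter gene Slc22a3 in astrocytes of the olfactory bulb, and the hippocampus is another region of the same design.

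In astrocytes, an active Gq protein switches on phospholipase C beta, which makes inositol trisphosphate (IP3). IP3 opens receptors on the endoplasmic reticulum, mainly Itpr2 in astrocytes, and the calcium set free can reach kinases, CREB and calcineurin, which drive immediate early genes. Astrocytes also clear glutamate and potassium and supply lactate. The choroid plexus, an epithelium that makes cerebrospinal fluid, lies in the ventricles beside the hippocampus and has a transcript set of its own, led by Ttr.

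Values below are normalised reads, the reads of a gene divided by 1 size factor for each library, and the 3 values of a group run from library 1 to library 3. The Gq-CNO libraries held 24664376, 12296801 and 2105201 reads in genes, and the Gq-Saline libraries held 9999365, 18338434 and 11555570. Library 3 of each group is the one whose table column is numbered 4, and the labels tie that column to its group but not to a replicate number. These libraries 3 stood apart from the rest. Reads were found in 14093, 13599 and 9796 gene entries in Gq-CNO and in 13451, 13815 and 11024 in Gq-Saline. Of the tested genes, 2199 were at 0 in Gq-CNO library 3 and 1253 in Gq-Saline library 3, against 41 to 91 in each of the other 4 libraries. The first principal component (50.6% of variance) set Gq-CNO library 3 apart and the second (32.4%) set Gq-Saline library 3 apart. Gq-CNO library 3 had the fewest reads, whereas the depth of Gq-Saline library 3 lay between those of libraries 1 and 2 of its group. Where leaving them out moved a log2 difference by over 1.5 times or turned its sign, the value from libraries 1 and 2 of each group alone stands beside it, an alternative chosen after seeing the data.

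**Figure D1:**
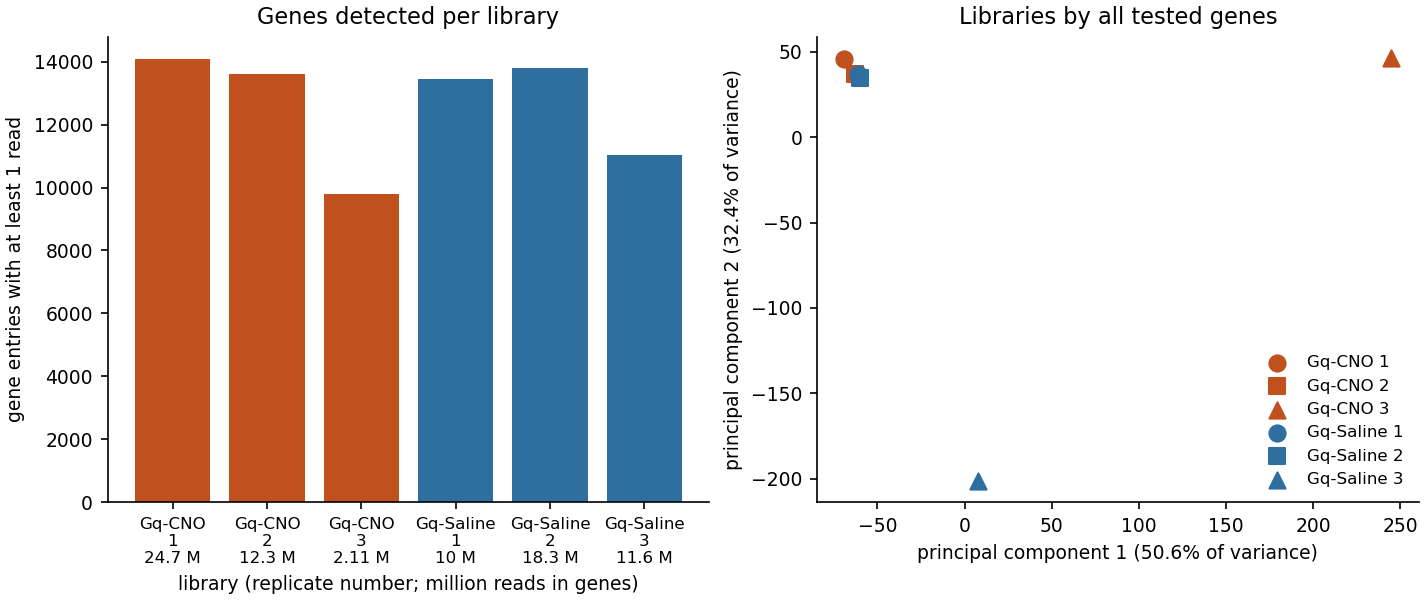
Left, gene entries with at least 1 read in each hippocampal library (bars; depth in reads under the replicate number). Right, the 6 libraries on the first and second principal components of log2(normalised reads + 1) over the 11519 tested genes. Libraries 1 and 2 of both groups lie together, while Gq-CNO 3 lies at 245 on the first component and Gq-Saline 3 at -201 on the second.

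The sort held astrocyte RNA in both groups. All 18 astrocyte markers passed the filter on low values. Their summed level was 96120 to 115481 RPM (reads scaled to a common library total) in Gq-CNO and 103216 to 125405 in Gq-Saline, and the median of their log2 differences was -0.14 (-0.04 from libraries 1 and 2 alone). The glutamate transporter gene Slc1a2 took 8.14% of all reads on average. Per kilobase of exon it was also the highest of the protein-coding genes listed, with 64467 normalised reads per kilobase, followed by Sparcl1 (52235), a secreted matrix protein gene, Cst3 (48347), which encodes a cysteine protease inhibitor, and Cpe (45181), a peptide-processing enzyme gene. Ttr came next at 31172, above the glutamine synthetase gene Glul at 18688. Neuron markers summed to 647 to 1043 RPM in Gq-CNO and 589 to 833 in Gq-Saline, and oligodendrocyte markers to 1068 to 1796 and 1145 to 1661. Microglia markers summed to 98.3, 178 and 940 RPM in Gq-CNO and to 266, 138 and 771 in Gq-Saline, so the 2 high values are those of the libraries 3. Endothelial markers stayed below 100 RPM in every library, and 4 of the 10 listed (Cldn5, Ly6a, Tek and Emcn) were too low to be tested. In a bulk library, fewer cells of a type and less RNA per cell cannot be told apart.

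Across all genes, no difference between Gq-CNO and Gq-Saline astrocytes passed the test. limma called 0 of 11519 genes (0%) at an adjusted p under 0.05, and the smallest adjusted p was 0.976. At an unadjusted p under 0.05 there were 234 genes (2.03%), 128 higher and 106 lower in Gq-CNO, and edgeR called 0 (323 at an unadjusted p under 0.05). The groups did not overlap in 1020 genes (8.85%), 481 of them higher in Gq-CNO (4.18%) and 539 lower (4.68%). The median log2 difference over all tested genes was -0.06, with 5409 genes above 0, and the interquartile range was -0.67 to 0.51. The median standard error of a log2 difference was 0.94 over all tested genes and 0.52 over those at or above the median level. From libraries 1 and 2 alone, limma also called 0 genes, with 544 at an unadjusted p under 0.05.

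Other fits made a few calls, all of them higher in Gq-CNO. With a weight estimated for each library, limma called 6 genes (0.0521%): C330006A16Rik, Ttr, Entpd1, Enpp2, Mest and Strip2. The weights were 1.75, 2.69 and 0.161 for the Gq-CNO libraries and 1.95, 2.48 and 0.274 for the Gq-Saline libraries, so these calls rest on libraries 1 and 2 of each group. DESeq2 on the recovered reads called 5 genes (0.0434%): Pcdhac2, Six3os1, C330006A16Rik, Cdk6 and Gad2. Of these, Pcdhac2, Six3os1 and Cdk6 were at 0 in all Gq-Saline libraries. They were high enough to be tested through the Gq-CNO libraries alone. Gad2 had 171, 26.2 and 951 normalised reads in Gq-CNO and 27.4, 8.98 and 1.98 in Gq-Saline, so its groups overlapped and library 3 was the highest. The gene shared by both sets, C330006A16Rik, had 333, 1688 and 895 normalised reads in Gq-CNO and 170, 148 and 172 in Gq-Saline (log2 difference 2.28, SE 0.61). Every Gq-CNO value lay above every Gq-Saline value, and the Gq-Saline values lay close together. Entpd1, which encodes an enzyme that breaks down extracellular ATP, had 5650, 367 and 1359 normalised reads in Gq-CNO and 153, 186 and 672 in Gq-Saline (log2 difference 2.40, SE 0.83). Its highest value came from Gq-CNO library 1 and the groups overlapped. Strip2, which encodes a subunit of a phosphatase and kinase complex, had 571, 1077 and 145 normalised reads in Gq-CNO and 361, 78.7 and 82.1 in Gq-Saline (log2 difference 1.74, SE 0.85).

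Named by the smallest unadjusted p, the 12 higher genes with moderate or high levels were Cd2ap, Mzt1, Ddx3y, Sowaha, Atp1b1, Ipo11, Entpd1, Rfxap, Uty, Med15, Dclk2 and Exoc6. Their groups did not overlap in 9 of the 12, beside 8.85% of all tested genes, a count that the choice by p favours. Cd2ap, which encodes an adaptor that links membrane proteins to actin, had 1221, 746 and 867 normalised reads in Gq-CNO and 484, 324 and 185 in Gq-Saline (log2 difference 1.58, SE 0.47). Mzt1, a gene of the gamma-tubulin ring complex that starts microtubules, had 556, 524 and 1191 in Gq-CNO and 209, 307 and 128 in Gq-Saline (log2 difference 1.80, SE 0.55; 1.09 without libraries 3). Both genes were higher in each Gq-CNO library than in any Gq-Saline library. Atp1b1, which encodes the beta 1 subunit of the sodium pump, had 2040.5, 1567 and 4631 normalised reads in Gq-CNO and 1357, 904 and 1147 in Gq-Saline (log2 difference 1.13, SE 0.38; 0.69 without libraries 3). The group means were 2746 ± 1649 and 1136 ± 226 (SD, n = 3 each), and the spread in Gq-CNO came from library 3. Dclk2, a microtubule-binding kinase gene, had 199, 263 and 515 normalised reads in Gq-CNO and 70.5, 75.5 and 9.89 in Gq-Saline (log2 difference 2.95, SE 1.04; 1.64 without libraries 3). Med15, a subunit gene of the Mediator complex of transcription, had 684, 428 and 878 in Gq-CNO and 265, 285 and 40.5 in Gq-Saline (log2 difference 2.12, SE 0.74; 0.97 without libraries 3). In these genes, too, the groups did not overlap, and the extreme values were those of the libraries 3.

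The 12 lower genes by the same rule were Gucy2e, B3glct, Ptpn13, Gtdc1, Slx4ip, Soga1, Dzip1, Fzd4, Mkrn1, Gtf2f1, Nhp2l1 and Tmcc1. The groups did not overlap in 11 of them, beside 8.85% of all tested genes, and the choice by p favours this count too. Slx4ip, with 3.80, 2.39 and 0 normalised reads in Gq-CNO, passed the filter on low values through the Gq-Saline libraries alone. The filter thus fixed its lack of overlap. Gucy2e, a membrane guanylate cyclase gene best known from photoreceptors, had 183, 267 and 83.9 normalised reads in Gq-CNO and 417, 658 and 1043 in Gq-Saline (log2 difference -2.03, SE 0.60; -1.24 without libraries 3). B3glct, a glucosyltransferase gene for proteins with thrombospondin repeats, had 296, 369.7 and 157 in Gq-CNO and 679, 790.2 and 849 in Gq-Saline (log2 difference -1.57, SE 0.48). All 3 Gq-CNO values of both genes were below all 3 Gq-Saline values. Gtdc1, a glycosyltransferase-like gene, had 120.0, 101 and 117 normalised reads in Gq-CNO and 279, 413 and 876 in Gq-Saline (log2 difference -2.04, SE 0.65). The Gq-CNO values lay close together here, and the Gq-Saline values spread widely above them. Fzd4, a Wnt and norrin receptor gene, had 216, 104 and 16.8 in Gq-CNO and 357, 318 and 1018 in Gq-Saline (log2 difference -2.72, SE 0.94; -1.16 without libraries 3). Nhp2l1, which encodes a protein of the spliceosome and of small nucleolar particles, had 588, 469.9 and 117 in Gq-CNO and 632, 893 and 3107 in Gq-Saline (log2 difference -1.91, SE 0.68), a difference that came down to -0.51 from libraries 1 and 2 alone.

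Libraries 3 carried much of the size of these differences. Gq-CNO library 3 was the highest of its group in 9 of the 12 higher genes and the lowest in 9 of the 12 lower genes. Gq-Saline library 3 was the lowest of its group in 8 of the 12 higher genes and the highest in 11 of the 12 lower genes. Without these libraries all 24 differences kept their sign, and 23 of them became smaller (11 of 12 higher and 12 of 12 lower). The rule chose these genes on these values, so the counts describe the choice.

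**Figure D2:**
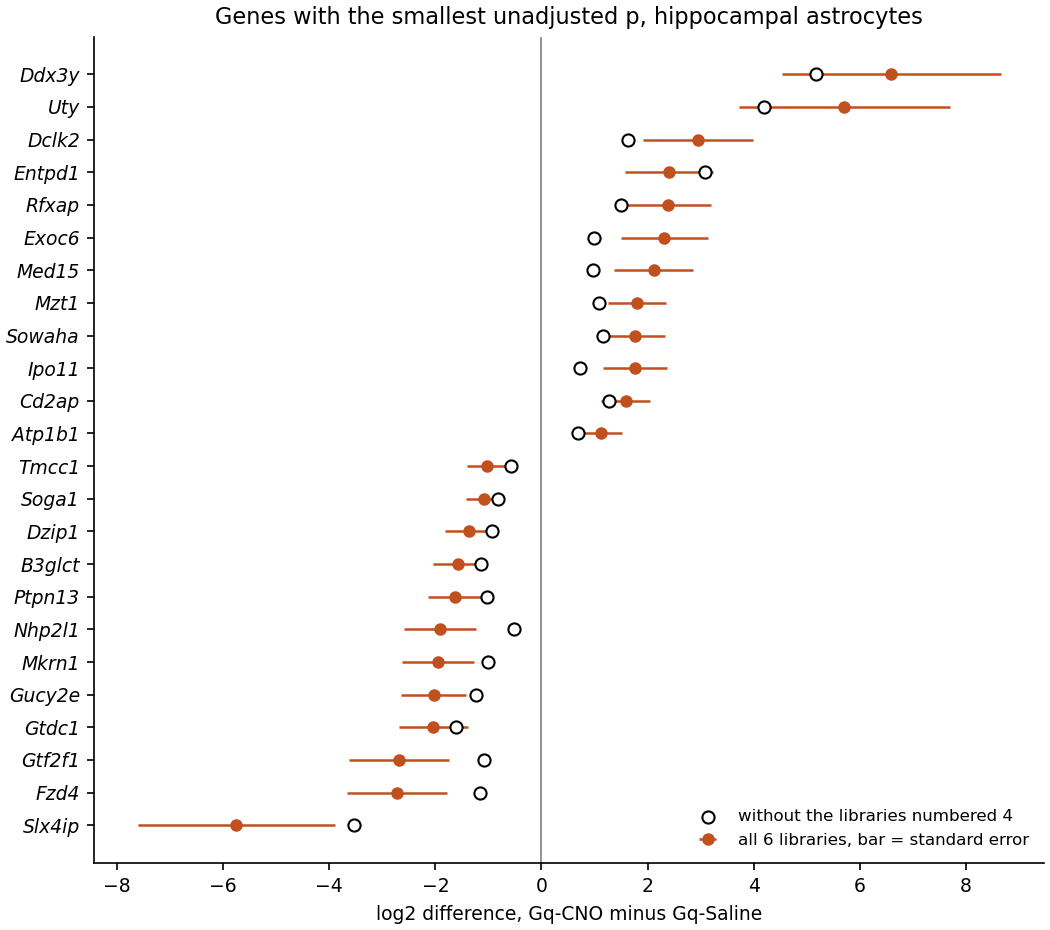
Log2 difference, Gq-CNO minus Gq-Saline, of the 24 genes named by their unadjusted p among genes with moderate or high levels (filled points, all 6 libraries; bars, standard error). Open points give the difference from libraries 1 and 2 of each group; 23 of the 24 lie nearer to 0 than the filled point, and Entpd1 lies farther out.

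Transcripts of the choroid plexus varied widely between libraries of 1 group, and Ttr, Enpp2 and Mest were higher in Gq-CNO in the fit with library weights. Ttr, which encodes the carrier of thyroid hormone and retinol in cerebrospinal fluid, had 90813, 30363 and 33074 normalised reads in Gq-CNO and 37429, 7806 and 22337 in Gq-Saline. The Gq-CNO mean was 51416 ± 34146 and the Gq-Saline mean 22524 ± 14813 (SD, n = 3 each), a log2 difference of 1.27 (SE 0.49). Libraries 1 were the highest of both groups, and Gq-Saline library 1 lay above Gq-CNO libraries 2 and 3, so the groups overlapped. limma gave an adjusted p of 0.976 for Ttr in the unweighted fit and 0.0048 with library weights (log2 difference 1.54). Enpp2, which encodes autotaxin, the secreted enzyme that makes lysophosphatidic acid, had 50917, 15435 and 14697 normalised reads in Gq-CNO and 19064, 4344 and 11785 in Gq-Saline. Its values ran in the same order as those of Ttr apart from Gq-CNO libraries 2 and 3, with a log2 difference of 1.19 (SE 0.51) and, with weights, 1.51 and an adjusted p of 0.0048. Kl, which encodes klotho, a co-receptor for a fibroblast growth factor, had 2925, 988 and 867 normalised reads in Gq-CNO and 1121, 363 and 128 in Gq-Saline (log2 difference 1.86, SE 0.69). Gq-CNO library 1 was again the highest of all, and only Gq-Saline library 1 reached the range of the Gq-CNO libraries.

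Of the 10 ependymal and choroid plexus markers, 7 were tested, 5 higher and 2 lower in Gq-CNO, with a median log2 difference of 0.34 (6 higher and 1 lower, median 1.58, from libraries 1 and 2 alone). The summed level of the 10 was 10388, 3293 and 2933 RPM in Gq-CNO and 4083, 869 and 2106 in Gq-Saline. The genes that mark ciliated ependyma were low: Tmem212 was at 0 in all 6 libraries, Ccdc153 had a read in Gq-Saline library 2 alone, and Dynlrb2 had reads in Gq-CNO libraries 1 and 2 alone. Foxj1, the ciliary transcription factor gene, had 122, 22.3 and 268 normalised reads in Gq-CNO and 38.2, 0.53 and 0 in Gq-Saline (log2 difference 4.55, SE 1.94; 2.79 without libraries 3). The choroid markers did not share 1 direction. Clic6, a chloride channel protein gene, had 1946, 429 and 319 normalised reads in Gq-CNO and 821, 114 and 1414 in Gq-Saline (log2 difference 0.34, SE 0.86; 1.58 without libraries 3). Folr1, the gene of a folate receptor, had 118, 5.57 and 0 in Gq-CNO and 41.1, 6.87 and 131 in Gq-Saline (log2 difference -1.93, SE 2.07; 0.62 without libraries 3). For both genes Gq-Saline library 3 was the highest of its group, and the groups overlapped.

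A longer list of 38 choroid plexus epithelium genes was written after these values were seen, so its direction supports nothing by itself. It had 35 tested members, 29 higher and 6 lower in Gq-CNO, with a median log2 difference of 1.04, beside -0.06 over all tested genes. From libraries 1 and 2 alone 34 of the 35 were higher and the median was 1.62. Its summed level was 19711, 6204 and 5249 RPM in Gq-CNO and 7746, 2133 and 3923 in Gq-Saline. Library 1 was the highest of its group in 33 of the 35 genes in Gq-CNO and in 29 in Gq-Saline. The summed level of Gq-Saline library 1 lay above those of Gq-CNO libraries 2 and 3, and 0 of the 35 genes passed the unweighted limma test (6 at an unadjusted p under 0.05). The 6 lower genes were Folr1, Sostdc1, Rdh5, Kcne2, Msx1 and Htr2c, and all 6 were at 0 in Gq-CNO library 3. Sostdc1, which encodes a secreted inhibitor of bone morphogenetic proteins, had 533, 66.8 and 0 normalised reads in Gq-CNO and 308, 41.2 and 60.3 in Gq-Saline (log2 difference -1.49, SE 1.97; 0.74 without libraries 3). Kcne2, a potassium channel subunit gene, had 674, 179 and 0 in Gq-CNO and 172, 45.4 and 74.2 in Gq-Saline (log2 difference -0.77, SE 1.98; 1.96 without libraries 3). Rdh5, a retinol dehydrogenase gene, stayed lower in Gq-CNO without libraries 3, at -0.02. How much choroid tissue was taken with the hippocampus is not recorded in the labels, and its part in these differences was not tested.

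Within that group, transport and junction genes had the values that follow. Slc31a1, the gene of the cell's main copper importer, had 1282, 889.7 and 1012 normalised reads in Gq-CNO and 581, 554 and 563 in Gq-Saline (log2 difference 0.89, SE 0.35). It was the single tested gene of the 35 whose groups did not overlap, beside 8.85% of all tested genes, and its Gq-Saline values lay close together. Slc4a5, a bicarbonate cotransporter gene, had 905, 218 and 0 normalised reads in Gq-CNO and 202, 1.06 and 60.3 in Gq-Saline, and Kcnj13, a potassium channel gene, had 1321, 336 and 157 in Gq-CNO and 465, 94.0 and 154 in Gq-Saline. The log2 difference of Slc4a5 was 0.98 (SE 2.41) in all libraries and 4.45 from libraries 1 and 2 alone. That of Kcnj13 was 1.12 (SE 0.83) and 1.67. Cldn2, the gene of a leaky tight junction protein, had 278, 315 and 50.3 normalised reads in Gq-CNO and 63.7, 29.6 and 28.7 in Gq-Saline (log2 difference 2.09, SE 1.13).

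Among secreted and surface proteins of the plexus the order of libraries varied. F5, which encodes coagulation factor V, had 3085, 1009 and 487 normalised reads in Gq-CNO and 1109.9, 293 and 206 in Gq-Saline (log2 difference 1.50, SE 0.70). Ace, the angiotensin-converting enzyme gene, had 985, 407 and 268 in Gq-CNO and 413, 42.3 and 183 in Gq-Saline (log2 difference 1.68, SE 0.83). In both genes the groups overlapped only through Gq-Saline library 1. Lbp, which encodes a protein that binds bacterial lipopolysaccharide, had 434, 136 and 50.3 normalised reads in Gq-CNO and 78.4, 7.40 and 27.7 in Gq-Saline (log2 difference 2.44, SE 1.34). Mest, an imprinted gene for a hydrolase-like protein, had 556, 410.3 and 157 in Gq-CNO and 50.9, 68.1 and 221 in Gq-Saline (log2 difference 1.83, SE 0.83; 3.00 without libraries 3; 2.76 with library weights, limma adjusted p 0.0048). Gq-CNO libraries 1 and 2 lay above all others, and library 3 was the highest in Gq-Saline. Otx2, the homeobox gene on which choroid plexus identity depends in mice, had 1326, 366 and 0 in Gq-CNO and 537, 62.9 and 5.93 in Gq-Saline (log2 difference 0.34, SE 2.33; 1.91 from libraries 1 and 2). The 0 in Gq-CNO library 3, the one with least reads, set the size of this difference. In that library 11 of the 35 tested genes were at 0, among them Htr2c, the serotonin 2C receptor gene that is abundant in choroid plexus, which had 563, 211 and 0 in Gq-CNO and 213, 21.7 and 29.7 in Gq-Saline.

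**Figure D3:**
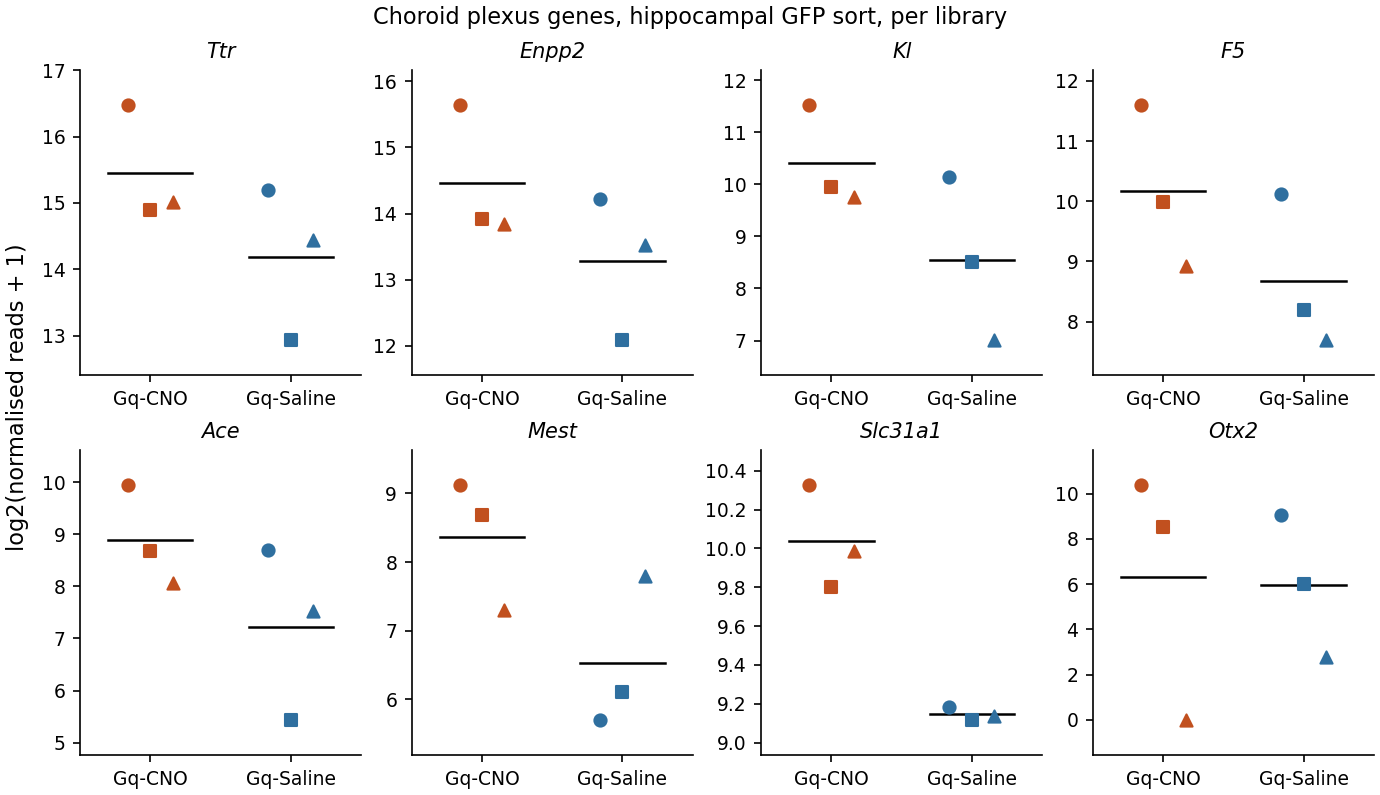
Level of 8 choroid plexus genes in each hippocampal library, as log2(normalised reads + 1), with Gq-CNO left of Gq-Saline in each panel (circle, square and triangle for libraries 1, 2 and 3; line, mean of the log2 values; vertical ranges differ between panels and most do not start at 0). Library 1 is the highest of its group in every Gq-CNO panel, the groups overlap in 7 of the 8 genes, and Slc31a1 is the exception.

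Most of the choroid genes were highest in library 1 of their group, though Mest was highest in library 3 in Gq-Saline. The sequences before the start sites of the listed genes were searched for TAATCC on both strands (GGATTA is its reverse complement). TAATCC is the core that Otx2 and related homeodomain proteins bind. Of the 38 genes, 29 matched an entry of the RefSeq promoter table (build GRCm38.p6), and 4 of them, Ace, Mest, Otx2 and Vat1l, held a match in the 250 bases before a start, Mest before each of 2 starts that lie 3 bases apart. Counted by promoter the share was 5 of 44 (11.4%), beside 2054 of 32851 promoters in the whole table (6.25%) and 559 of 11396 promoters of tested genes (4.905%). Those of Ace (chr11:105967698-105967947, plus strand), Mest (chr6:30737800-30738049, plus strand) and Otx2 (chr14:48665110-48665359, minus strand) are printed 5′ to 3′ because their genes carry the group's values described above. Capitals mark the match, in the TAATCC direction in Ace and in the GGATTA direction in Mest and Otx2. A match describes the letters and is not a measured binding site.
Ace: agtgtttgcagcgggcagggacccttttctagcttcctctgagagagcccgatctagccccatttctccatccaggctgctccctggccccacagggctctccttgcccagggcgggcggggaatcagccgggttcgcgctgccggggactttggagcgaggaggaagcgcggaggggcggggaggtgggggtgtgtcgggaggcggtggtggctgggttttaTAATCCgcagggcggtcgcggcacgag
Mest: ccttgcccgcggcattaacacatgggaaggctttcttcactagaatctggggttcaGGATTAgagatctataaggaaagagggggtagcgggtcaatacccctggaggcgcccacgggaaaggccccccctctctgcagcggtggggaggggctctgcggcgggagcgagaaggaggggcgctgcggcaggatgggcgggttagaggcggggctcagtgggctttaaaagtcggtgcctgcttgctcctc
Otx2: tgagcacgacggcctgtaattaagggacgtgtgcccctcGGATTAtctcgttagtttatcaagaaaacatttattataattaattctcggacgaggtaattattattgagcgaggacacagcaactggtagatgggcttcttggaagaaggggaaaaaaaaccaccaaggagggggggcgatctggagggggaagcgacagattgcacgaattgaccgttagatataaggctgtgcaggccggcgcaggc

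Levels of Ttr differed by region within the GFP libraries of Gq mice. It stood at 2809 to 9694 RPM in Gq-CNO and 806 to 3821 in Gq-Saline hippocampal libraries. In the cortex it stood at 49.2 to 132 in Gq-CNO and 3.55 to 1478 in Gq-Saline libraries, and in the olfactory bulb at 0.236 to 39.2 and 0 to 3.89. The 49.2 is the value of cortical Gq-CNO library 3, which held only 325129 reads in genes. Every hippocampal Gq-CNO value lay above every value of the other regions, and these levels across regions are a description with no test.

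Genes of the Y chromosome also separated libraries. Ddx3y, a Y-linked RNA helicase gene, had 1156, 981 and 693 normalised reads in Gq-CNO and 0, 878 and 0 in Gq-Saline, and Uty, Eif2s3y and Kdm5d were likewise at 0 in Gq-Saline libraries 1 and 3. Xist, the RNA of the inactive X chromosome, had 0, 0 and 83.9 normalised reads in Gq-CNO and 142, 0 and 142 in Gq-Saline. By these genes the 3 Gq-CNO libraries and Gq-Saline library 2 held Y transcripts, Gq-Saline libraries 1 and 3 held none, and Gq-CNO library 3 held Xist beside Y transcripts. Since only 1 of the 3 Gq-Saline libraries held Y transcripts, sex and treatment cannot be fully told apart in this comparison, and the differences of Ddx3y and Uty named above follow this split.

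The Gq pathway genes were asked for because the receptor signals through them. Of 29 listed, 24 were tested, 10 higher and 14 lower in Gq-CNO, with a median log2 difference of -0.25 (16 higher and 8 lower, median 0.10, from libraries 1 and 2 alone). Gnaq, which encodes the Gq alpha subunit, had 4052, 3440.4 and 1834 normalised reads in Gq-CNO and 4022, 3196 and 5370 in Gq-Saline (log2 difference -0.48, SE 0.31). Without libraries 3 the difference was 0.06. Gna11, the gene of the closely related G11 subunit, had 581, 671 and 123 in Gq-CNO and 551, 663 and 2662 in Gq-Saline (log2 difference -1.44, SE 0.70; 0.05 without libraries 3), so its distance between groups also came from the libraries 3. Among the effector enzymes, Plcb1 stood at 2413, 3122 and 3294 normalised reads in Gq-CNO and 3642, 3897 and 2283 in Gq-Saline (log2 difference -0.13, SE 0.27; -0.46 without libraries 3). Plcb3, another phospholipase C beta gene, had 512, 468 and 308 in Gq-CNO and 459, 617 and 1892 in Gq-Saline (log2 difference -0.95, SE 0.53; -0.12 without libraries 3).

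The values of both IP3 receptor genes described here overlapped between groups. Itpr2 had 2508, 2526 and 3176 normalised reads in Gq-CNO and 2881, 2293 and 2345 in Gq-Saline (log2 difference 0.13, SE 0.24; -0.03 without libraries 3). Itpr1, the form best known from neurons, had 1332, 836 and 799.7 in Gq-CNO and 608, 406 and 1041 in Gq-Saline (log2 difference 0.60, SE 0.42; 1.08 without libraries 3). For Itpr2 Gq-Saline library 1 lay above Gq-CNO libraries 1 and 2, and for Itpr1 Gq-Saline library 3 lay above Gq-CNO libraries 2 and 3. Prkce, which encodes a protein kinase C activated by diacylglycerol, had 286, 369 and 319 in Gq-CNO and 399, 517 and 998 in Gq-Saline (log2 difference -0.87, SE 0.49; -0.48 without libraries 3), with no overlap. It was 1 of 24 tested genes whose groups did not overlap, a share below the 8.85% over all tested genes.

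For store-operated entry and calcium handling, 28 of 31 listed genes were tested, 13 higher and 15 lower, with a median log2 difference of -0.09 (15 and 13, median 0.02, without libraries 3). Store-operated entry uses the Stim sensors and the Orai pores. Orai3, a pore subunit gene, had 57.0, 98.6 and 0 normalised reads in Gq-CNO and 403, 179.6 and 379.7 in Gq-Saline (log2 difference -4.08, SE 1.59; -1.83 without libraries 3), and the groups did not overlap. Orai1, another pore subunit gene, had 28.5, 7.95 and 44.7 in Gq-CNO and 198, 34.3 and 136 in Gq-Saline (log2 difference -2.11, SE 1.37; -2.37 without libraries 3). Stim2, which encodes a sensor of calcium in the endoplasmic reticulum, had 573, 391 and 101 in Gq-CNO and 162, 58.6 and 63.3 in Gq-Saline (log2 difference 1.73, SE 0.88; 2.27 without libraries 3). Gq-CNO libraries 1 and 2 lay above all Gq-Saline libraries for Stim2, and the paralog Stim1 had 153, 257 and 0 in Gq-CNO and 238, 129.9 and 171 in Gq-Saline (log2 difference -2.36, SE 1.77; 0.17 without libraries 3). Among the exchangers, Slc8a2, a sodium-calcium exchanger gene, had 82.4, 26.2 and 11.2 in Gq-CNO and 8.82, 21.1 and 0 in Gq-Saline (log2 difference 2.33, SE 1.90; 1.69 without libraries 3), and the groups overlapped. The values lay close together for Atp2a2, the calcium pump gene of the endoplasmic reticulum, which had 3389, 3438 and 2830 normalised reads in Gq-CNO and 3717, 3564 and 3439.7 in Gq-Saline (log2 difference -0.16, SE 0.22; -0.09 without libraries 3). Atp2a2 and Orai3 were the 2 of 28 tested genes without overlap, beside 8.85% of all tested genes.

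Immediate early genes were 16 of 25 tested, 11 higher and 5 lower in Gq-CNO, with a median log2 difference of 0.97 (10 higher and 6 lower, median 0.66, without libraries 3) and none called. Across all settings the median of this list ran from -0.14 to 1.58, so its sign depended on the setting. Egr1, an activity-induced transcription factor gene, had 737, 359 and 805 normalised reads in Gq-CNO and 109, 349 and 0.99 in Gq-Saline (634 ± 240.1 and 153 ± 178, SD, n = 3 each). Its groups did not overlap, but the lowest Gq-CNO value lay just above the highest Gq-Saline value, and the log2 difference of 3.82 (SE 1.47) became 1.40 without libraries 3. Btg2, an antiproliferative gene of the same class, had 53.6, 67.6 and 157 in Gq-CNO and 33.3, 31.2 and 1.98 in Gq-Saline (log2 difference 0.88 without libraries 3), again with no overlap. Fos, which encodes an AP-1 subunit, had 182, 82.7 and 0 in Gq-CNO and 11.8, 84.5 and 0 in Gq-Saline (two-sided exact permutation p = 0.7; with 3 libraries a group, p cannot go below 0.1). The orphan receptor gene Nr4a3 had 99.5, 206 and 0 in Gq-CNO and 31.35, 33.3 and 0.99 in Gq-Saline, and Nr4a1 had 91.2, 54.9 and 0 in Gq-CNO and 2.94, 52.3 and 0.99 in Gq-Saline. The groups overlapped for Fos, Nr4a1 and Nr4a3, and the values of all 3 in libraries 3 were at or near 0. Klf6 ran the other way, at 164, 154 and 101 in Gq-CNO and 260, 182 and 248 in Gq-Saline (log2 difference -0.73, SE 0.69; -0.45 without libraries 3), with no overlap. The neuronal activity gene Npas4 was too low to be tested, with 0, 4 and 5 reads in Gq-CNO and 0 in all 3 Gq-Saline libraries. Arc, another such gene, had 3.04, 39.0 and 151 normalised reads in Gq-CNO and 10.8, 145 and 0 in Gq-Saline. Its groups overlapped, and its log2 difference of 1.28 (SE 2.16) became -1.71 without libraries 3. Neuron markers summed to 647, 732 and 1043 RPM in Gq-CNO and 833, 589 and 709.8 in Gq-Saline, and their part in these differences was not tested.

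**Figure D4:**
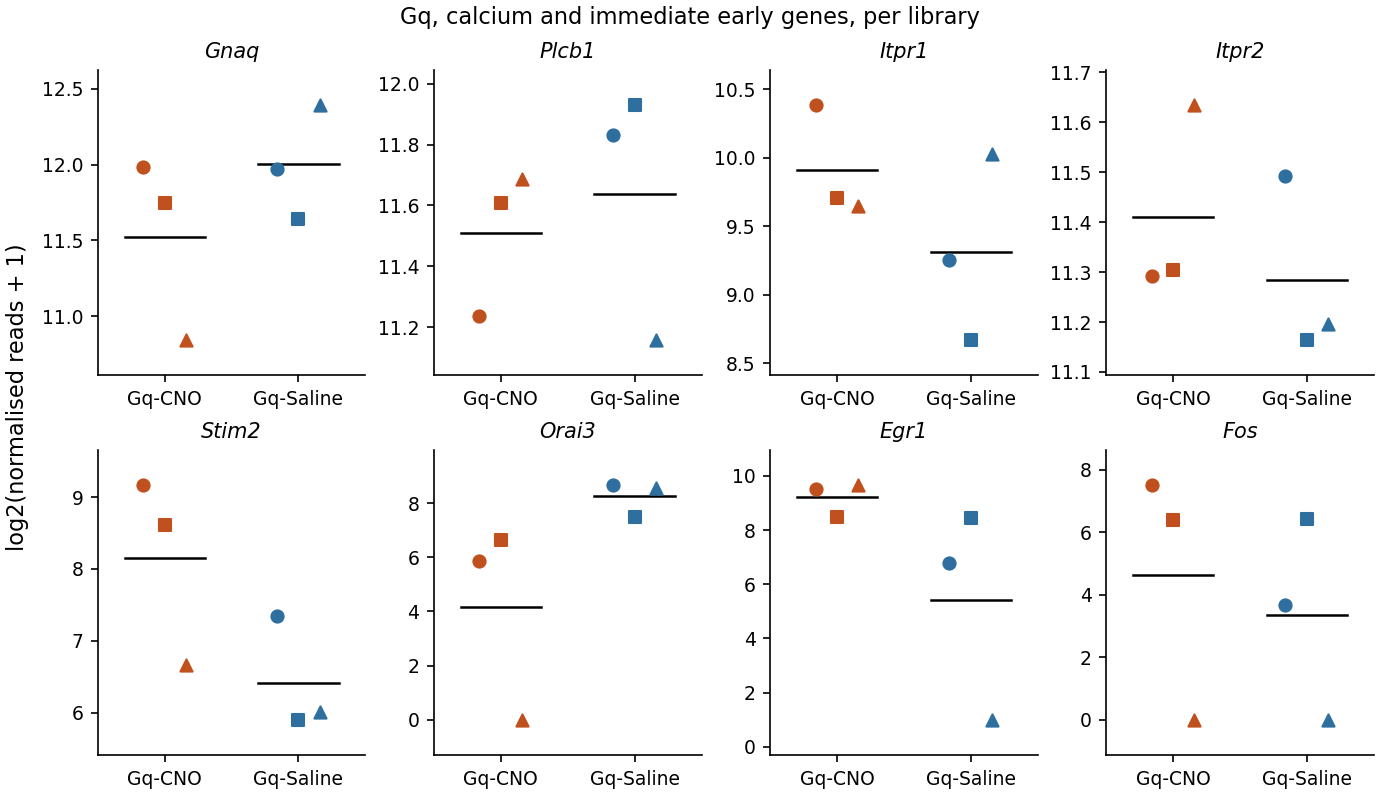
Level of 8 Gq, calcium and immediate early genes in each hippocampal library, as log2(normalised reads + 1), with Gq-CNO left of Gq-Saline (circle, square and triangle for libraries 1, 2 and 3; line, mean of the log2 values; vertical ranges differ between panels and most do not start at 0). The groups do not overlap for Orai3 and Egr1 and overlap for the other 6, and the values of Orai3, Egr1 and Fos near 0 belong to libraries 3.

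Feedback and nuclear steps downstream of calcium showed no common direction. Of 20 ERK feedback genes 17 were tested, 8 higher and 9 lower (median -0.02; 7 and 10, median -0.07, without libraries 3), with Spry2, an inhibitor gene of growth factor signalling, at 608, 1038 and 1499 normalised reads in Gq-CNO and 509, 810.3 and 1378 in Gq-Saline (log2 difference 0.24, SE 0.45). Of 23 calcineurin, NFAT and CREB genes 22 were tested, 8 higher and 14 lower (median -0.15; 10 and 12, median -0.01, without libraries 3). Crtc1, which encodes a coactivator of CREB, had 225, 247 and 291 in Gq-CNO and 511, 351 and 377 in Gq-Saline (log2 difference -0.69, SE 0.51; -0.84 without libraries 3), with no overlap. Pde4b, a cyclic AMP phosphodiesterase gene that CREB induces, had 1143, 1908 and 2243 in Gq-CNO and 1215, 1204 and 1145 in Gq-Saline (log2 difference 0.51, SE 0.32; 0.29 without libraries 3). Its Gq-Saline values were nearly equal, and Gq-CNO library 1 lay just below them.

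Genes of the homeostatic work of astrocytes had median log2 differences near 0. For glutamate uptake and the glutamine cycle, 13 of 14 listed genes were tested, 4 higher and 9 lower (median -0.06; 7 and 6, median 0.01, without libraries 3). Slc1a2 had 670224, 785803 and 1054760 normalised reads in Gq-CNO and 747838, 727481 and 1093790 in Gq-Saline (log2 difference -0.03, SE 0.21), and libraries 3 were the highest of both groups. All 23 potassium, water, sodium pump and gap junction genes were tested, 6 higher and 17 lower (median -0.14; -0.06 without libraries 3). Besides Atp1b1, described above, the sodium bicarbonate cotransporter gene Slc4a4 had 25800, 32560 and 22515 normalised reads in Gq-CNO and 33276, 32665 and 34966 in Gq-Saline (log2 difference -0.34, SE 0.18; -0.19 without libraries 3). All 3 Gq-CNO values lay below all 3 Gq-Saline values, the highest of Gq-CNO by little. The connexin gene Gjb6 had 2134, 3388 and 3898 in Gq-CNO and 3914, 3582 and 4455 in Gq-Saline (log2 difference -0.38, SE 0.26).

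In energy metabolism, 29 of 30 genes of glycolysis, lactate and glycogen were tested, 9 higher and 20 lower (median -0.14; -0.06 without libraries 3). Pdk4, which encodes a kinase that holds back pyruvate dehydrogenase, had 849, 764 and 285 normalised reads in Gq-CNO and 1299, 1119 and 1177 in Gq-Saline (log2 difference -1.07, SE 0.44; -0.58 without libraries 3). Slc16a7, the monocarboxylate transporter gene best known from neurons, had 2, 1 and 0 reads in Gq-CNO and 17, 38 and 16 reads in Gq-Saline. In both genes the groups did not overlap, and Slc16a7 was so low that a few reads decide its place. Slc16a7 passed the filter on low values through the Gq-Saline libraries alone, so the filter fixed its lack of overlap. Cholesterol and lipoprotein genes were 14 higher and 15 lower of 29 tested (median -0.05; -0.03 without libraries 3). The most abundant of the named ones, Clu, which encodes the lipoprotein clusterin, had 36299, 41302 and 36216 normalised reads in Gq-CNO and 43530, 45819 and 45047 in Gq-Saline (log2 difference -0.24, SE 0.15), without overlap. Abcg1, a cholesterol exporter gene, had 35.3, 12.7 and 89.5 in Gq-CNO and 4.90, 1.58 and 0 in Gq-Saline (log2 difference 3.84, SE 1.87; 2.52 without libraries 3), also without overlap. Abcg1 passed the filter through the Gq-CNO libraries alone, so the filter fixed its lack of overlap. Dhcr7, whose enzyme makes cholesterol in the last step of the Kandutsch-Russell route, had 71.0, 381 and 78.3 in Gq-CNO and 431, 300.0 and 547 in Gq-Saline (log2 difference -1.68, SE 0.75; -1.12 without libraries 3).

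Glucocorticoid-responsive genes were all tested, 7 higher and 11 lower of 18, with a median log2 difference of -0.30 in all libraries and -0.31 without libraries 3. Besides Pdk4, the clock gene Per1 had 112, 143 and 5.59 normalised reads in Gq-CNO and 246, 246 and 279 in Gq-Saline (log2 difference -2.43, SE 1.18; -0.95 without libraries 3). The metallothionein gene Mt1 had 9103, 10350 and 10273 in Gq-CNO and 12167, 13159 and 12095 in Gq-Saline (log2 difference -0.33, SE 0.17). Neither gene overlapped between groups, and the Mt1 difference was as large without libraries 3 (-0.38). Sgk1, a kinase gene induced by glucocorticoids and also by cell shrinkage, had 837, 302 and 0 in Gq-CNO and 230.2, 65.0 and 176 in Gq-Saline. Its log2 difference was -1.14 (SE 1.96) with all libraries and 2.03 from libraries 1 and 2, so the 0 of Gq-CNO library 3 turned its sign. Of 20 circadian clock genes 19 were tested, 4 higher and 15 lower (median -0.28; 6 and 13, median -0.09, without libraries 3).

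Factors by which astrocytes build or prune synapses were 11 higher and 18 lower of 29 tested (median -0.13). Tgfb2, a growth factor gene, had 855, 960.5 and 1706 normalised reads in Gq-CNO and 834, 693 and 47.46 in Gq-Saline (log2 difference 1.88, SE 0.86; 0.25 without libraries 3). Mertk, an engulfment receptor gene, had 2012, 2454 and 1180.0 in Gq-CNO and 2587, 2621 and 2931 in Gq-Saline (log2 difference -0.59, SE 0.30; -0.23 without libraries 3). Nlgn3, a cell adhesion gene of synapses and astrocytes, had 986, 968 and 576 in Gq-CNO and 1621, 1060.1 and 1586 in Gq-Saline (log2 difference -0.77, SE 0.35; -0.42 without libraries 3). The groups did not overlap in any of these 3 genes, and they were 3 of 5 such genes in the list of 29, beside 8.85% of all tested genes.

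The filament gene Gfap had 6383, 6608 and 6571 normalised reads in Gq-CNO and 5973, 5897 and 9853 in Gq-Saline (log2 difference -0.11, SE 0.23; 0.13 without libraries 3), and all 3 Gq-CNO values lay between those of Gq-Saline libraries 1 and 3. Of 13 pan-reactive genes 6 were tested (4 higher, 2 lower, median 0.23; -0.17 without libraries 3) and of 16 interferon response genes 8 (4 higher, 4 lower, median -0.09; -0.25 without libraries 3). Of 22 inflammatory signal genes 8 were tested, 5 higher and 3 lower, with a median of 0.67 (6 and 2, median 0.68, without libraries 3) that stayed above 0 in every setting, between 0.24 and 0.83, and none was called. Ptges, a prostaglandin E synthase gene, had 152, 60.4 and 598 normalised reads in Gq-CNO and 23.5, 84.5 and 66.2 in Gq-Saline (log2 difference 1.77; 1.08 without libraries 3). The toll-like receptor gene Tlr3 had 1568, 2188 and 799.7 in Gq-CNO and 2127, 1847 and 2847 in Gq-Saline (log2 difference -0.68, SE 0.37; -0.10 without libraries 3). Both overlapped between groups. B2m, which encodes the light chain of major histocompatibility class I molecules, had 1912, 2417 and 1839.9 normalised reads in Gq-CNO and 3382, 3042 and 3052 in Gq-Saline (2056 ± 315 and 3158 ± 193, SD, n = 3 each). Its groups did not overlap, the log2 difference was -0.63 (SE 0.24) with all libraries and -0.58 without libraries 3, and limma gave an adjusted p of 0.976. The heavy chain gene H2-K1 had 288, 319 and 179 in Gq-CNO and 292, 479 and 612 in Gq-Saline (log2 difference -0.79, SE 0.54; -0.30 without libraries 3). H2-D1, another heavy chain gene that shares sequence with its relatives, had 122, 127 and 313 in Gq-CNO and 36.2, 151 and 320.3 in Gq-Saline (log2 difference 0.48, SE 0.94; 0.74 without libraries 3), so the class I genes did not share 1 direction.

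Of 12 markers of hippocampal neurons 8 were tested, 4 higher and 4 lower (median -0.46; 3 and 5, median -0.98, without libraries 3). Prox1, the transcription factor gene of dentate granule cells, had 111, 159.8 and 50.3 normalised reads in Gq-CNO and 339.9, 339 and 314 in Gq-Saline (107 ± 54.8 and 331 ± 14.4, SD, n = 3 each; log2 difference -1.77, SE 0.72; -1.34 without libraries 3). Wfs1, a marker gene of CA1 neurons, had 192, 131 and 50.3 in Gq-CNO and 541, 330.1 and 287 in Gq-Saline (log2 difference -1.77, SE 0.72; -1.41 without libraries 3). Neither overlapped between groups. Pcp4, a calmodulin-binding protein gene of granule and CA2 cells, ran the other way, with 415, 111 and 716 in Gq-CNO and 175, 125 and 179.9 in Gq-Saline (log2 difference 1.02, SE 0.75; 0.53 without libraries 3), and Bcl11b, a transcription factor gene, had 76.3, 33.4 and 157 in Gq-CNO and 62.7, 24.3 and 24.7 in Gq-Saline. Both overlapped between groups. The summed level of the list was 111, 54.1 and 101 RPM in Gq-CNO and 134, 108 and 74.2 in Gq-Saline. Gad2, a gene of GABA synthesis in interneurons, had 171, 26.2 and 951 in Gq-CNO and 27.4, 8.98 and 1.98 in Gq-Saline (log2 difference 4.12, SE 1.65; 2.02 without libraries 3). The partner gene Gad1 had 25.1, 12.7 and 861 in Gq-CNO and 87.2, 25.9 and 67.2 in Gq-Saline (log2 difference 0.31, SE 1.57; -1.36 without libraries 3). Gq-CNO library 3 was the highest for both genes, and without libraries 3 Gad1 was lower in Gq-CNO while Gad2 was higher.

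Slc22a3, the transporter gene of the series (chromosome 17, 12418960 to 12507704), was too low to be tested. It had 0, 14 and 0 reads in Gq-CNO and 0, 0 and 0 in Gq-Saline, with p = 1 in a two-sided exact permutation test. Its neighbour Slc22a2 had 61, 0 and 0 reads in Gq-CNO and 0 in all Gq-Saline libraries (exact permutation p = 1). For both genes a single Gq-CNO library held every read. The permutation test then returns that p whatever the count, so it tells nothing about the groups. Of 12 monoamine transporter genes 4 were tested, 2 higher and 2 lower, and Slc29a4, a plasma membrane monoamine transporter gene, had 179, 45.3 and 61.5 normalised reads in Gq-CNO and 96.0, 35.39 and 140.4 in Gq-Saline (log2 difference 0.02; 0.62 without libraries 3). The monoamine oxidase genes Maoa (log2 difference 0.18, SE 0.39; -0.01 without libraries 3) and Maob (-0.12, SE 0.29; -0.01 without libraries 3) overlapped between groups, and Tgm2, a transglutaminase gene, had at most 15 reads in a library.

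Some tested genes had no read in a whole group. Pcdhac2, Six3os1, Cdk6 and Fam222a were at 0 in all 3 Gq-Saline and above 0 in all 3 Gq-CNO libraries, and Cntnap4 alone was the reverse. They were chosen here after their values were seen. All were among the genes tested above, where limma called none of them and DESeq2 called Pcdhac2, Six3os1 and Cdk6. The first 4 passed the filter on low values through the Gq-CNO libraries alone, and Cntnap4 through the Gq-Saline libraries alone. Their lack of overlap was thus fixed by the filter. Pcdhac2, a clustered protocadherin gene that shares its last exons with the other alpha protocadherins, had 201, 53 and 48 reads in Gq-CNO. Against 3 reads over the Gq-Saline group it was at least 97.1-fold higher in pooled normalised reads, a bound that covers counting error only. Cdk6, a cell cycle kinase gene, had 120, 13 and 33 reads in Gq-CNO and was at least 53.4-fold higher. Six3os1, an RNA read opposite to the homeobox gene Six3, had 47, 16 and 60 reads in Gq-CNO and was at least 39.6-fold higher. How reads were divided among the alpha protocadherins, and whether strand was used for Six3os1, is not given in the sources used here.

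Other lists were counted without a member of note. Cytosolic ribosomal protein genes were 20 higher and 16 lower of 36 tested (median 0.04; 0.02 without libraries 3), oxidative phosphorylation genes 22 and 15 of 37 (0.04; 13 and 24, -0.11, without libraries 3), genes of histone acetylation, methylation and chromatin 15 and 15 of 30 (0.00; 0.01 without libraries 3), and genes of peripheral processes and translation 8 and 12 of 20 (-0.05; -0.07 without libraries 3). Astrocyte transcription factors were 9 higher and 22 lower of 31 (-0.23; 0.00 without libraries 3), and astrocyte G protein-coupled receptors 7 and 17 of 24 (-0.14). The median of the transcription factors thus rested on libraries 3. Fibroblast and meningeal markers were 7 higher and 2 lower of 9 (1.44; 0.57 without libraries 3), at 566, 112 and 259 RPM in Gq-CNO and 266, 117 and 155 in Gq-Saline. Library 1 was the highest of both groups, as for most choroid genes.

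Whether the Gq-CNO effect of the hippocampus differed from that of the other regions was tested as the difference of the 2 effects in 12 libraries each. For the hippocampus minus the olfactory bulb, limma called 0 of 12857 genes (0%), with 380 at an unadjusted p under 0.05. For the hippocampus minus the cortex it called 0 of 11978 (0%), with 282. edgeR called 0 in both (611 and 484 at an unadjusted p under 0.05), and DESeq2 called 5 and 6. In the cortex, too, library 3 of each group is a column numbered 4 that the labels tie to its group only. Cortical Gq-CNO library 3 held 325129 reads in genes. Cd2ap ranked near the top in both, and its log2 effect was 1.59 in the hippocampus against -0.39 in the olfactory bulb (difference 1.98, SE 0.53) and 1.61 against -0.94 in the cortex (difference 2.56, SE 0.81). Herc1, a ubiquitin ligase gene, had an effect of 0.81 in the hippocampus against -0.76 in the olfactory bulb (difference 1.58, SE 0.40), and Gtdc1 one of -2.03 against 0.91 (difference -2.94, SE 0.86). Cd2ap and Gtdc1 were also chosen above by their hippocampal p. Both regional differences reuse the same hippocampal libraries, so the ranks of these 2 genes are no separate evidence. Spry2 stood at 0.25 in the hippocampus and 1.78 in the olfactory bulb (difference -1.52, SE 0.59). The limma adjusted p of each of these differences was at least 0.974.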

How the data were processed

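RNA of 6 hippocampal GFP sorts was sequenced as paired ends. Per the submitters' processing notes, the authors used FastQC 0.11.7, MultiQC 1.11, STAR 2.5.0a, DESeq2 1.30.1 and build mm10; the counter and annotation are not given in the sources used here. The deposited values are a signal, gene reads divided by 1 size factor per library. Dividing by the smallest step gave whole reads for 100% of values (within 0.05). The ribosomal RNA entry Rn45s, 14.5% to 16.8% of reads, was kept. PCR copies were not marked, so floors cover counting error only.

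A gene was tested if 3 or more of the 6 libraries reached a value of 10. limma 3.58.1 (R 4.3.3) was fitted to log2(value + 1), with the variance trended on the mean, no block, and Benjamini-Hochberg adjustment over all tested genes. A log2 difference on this scale understates the change of low genes. The recovered reads were also tested with edgeR 4.0.16 and DESeq2 1.42.0. Differences of effects were fitted over 12 libraries with joint size factors. Positions are from GENCODE mouse release 21. The limma, edgeR and DESeq2 fits were tested on simulated data.

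Replicates are separate libraries by label, and nothing ties them to separate animals: p-values then rest on the spread between these libraries only, which may be technical. Deviations of same-numbered libraries correlated at 0.117, 0.0867 and 0.132, each above those of differently numbered libraries (-0.130 to 0.0829). The labels do not say that a number marks a shared animal, and the numbers were not used as pairs in the main fit. Between libraries of a group, chi-square per gene was 41.1 to 124.9. Named genes are the always-named ones and the 12 higher and 12 lower with the smallest unadjusted p among genes at or above the median level. Up to 4 of each list by p, the member of each list with the highest level, and the 4 per direction for differences of effects were added. Other genes described, such as Itpr1, Itpr2 and Plcb1, lie outside this rule and were chosen with their values known. Members and lists were chosen with earlier results of these data known. No sample column of the tables used was left out (0).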

Additional observations from a re-analysis of the deposited data

How the results depend on the processing

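Under 19 other settings, the count of called genes stayed at 0, apart from the following. DESeq2 called 5, library weights 6, and a replicate block on libraries 1 and 2 alone 38 of 11519 (32 higher, 6 lower). Of these 38, 16 were among the 35 tested genes of the choroid list. That list was written after these values were seen, so this count supports nothing by itself. The block on libraries 1 and 2 has only 2 pairs of libraries, so its variance for each gene leans heavily on that of other genes. Its calls included the Y-linked genes Ddx3y, Uty and Kdm5d. These were at 0 in Gq-Saline library 1 but not in Gq-Saline library 2, so the calls include the split by Y transcripts described above. A replicate block over all 3 column numbers called 0. The difference of effects gave 5 calls (olfactory bulb) and 6 (cortex) in DESeq2 and 0 otherwise. Leaving out each library in turn gave 0 to 0 calls for all 3 counts. Each of the 24 genes named by smallest p kept its sign in every setting, as did 188 of 274 named genes and 17 of 47 list medians. The 24 were chosen on these same values, so their constant sign describes the choice. Without libraries 3, 44 of the 274 had the opposite sign to the value from all libraries. Of the genes called in some setting, Sgk1 (2.03) and Htr2c (2.31) were called in the replicate block on libraries 1 and 2 with the opposite sign. Leaving out 1 library moved the median of all tested genes to between -0.15 and 0.10, from -0.06. Depth limits Gq-CNO library 3 most: 3 reads there are 1.43 RPM, against 0.122 in Gq-CNO library 1.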
